A study of Homo sapiens and Mus musculus with 18 samples.

Results

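The 1 library of smooth muscle made from human embryonic stem cells was compared, over all genes, with the 2 libraries of mesothelium-like cells (MLC) made directly from the same kind of progenitor. These are 3 of the 18 samples of the series, and 23049 of the 63677 gene IDs in the files had enough counts to be tested. All 3 libraries began with the WA09 embryonic stem cell line, a single human line, which was turned into splanchnic mesoderm over 4 days with WNT3A at 25 ng/ml and BMP4 at 100 ng/ml. For MLC the mesoderm was replated in a defined medium that lacked FGF2 and Activin A and held retinoic acid at 4 µM and SB431542, an inhibitor of the TGF-beta type I receptors, at 20 µM, up to day 18. For smooth muscle the mesoderm stayed in culture for 16 to 18 days, and the labels list no inhibitor and no retinoic acid for it. The series' design text names this library as a reference cell type beside an epithelial and a mesenchymal form of mesothelium. The mesenchymal form, MesoT, had been given WNT3A, BMP4 at 50 ng/ml and retinoic acid at 4 µM, and was kept to day 18 or, at passage 4, in 10% fetal bovine serum with FGF2 at 8 ng/ml (MesoT FCS), with 2 libraries each. The 4 MesoT libraries entered the fit to estimate the spread and are quoted only as levels.

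Splanchnic mesoderm is the inner layer of the lateral plate, and it gives rise both to the muscular wall of the gut and other viscera and to mesothelium, the epithelial sheet that covers the organs. Smooth muscle cells contract through actin and myosin isoforms of their own, and many of those genes are switched on by serum response factor (SRF) together with its partner myocardin at a DNA motif called the CArG box. Mesothelium carries simple keratins, tight junctions, surface proteins such as uroplakin 3B and mesothelin, and the transcription factor WT1. TGF-beta signalling favours a contractile, matrix-producing state in both lineages.

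Counts are given as CPM (reads of a gene per 1000000 reads of the library) after scaling, and each difference as the log2 fold change, smooth muscle minus MLC, ± its standard error from edgeR's quasi-likelihood fit. Genes are called higher or lower where the Benjamini-Hochberg adjusted p of that fit was under 0.05. Smooth muscle had n = 1 and MLC n = 2, so the test takes the scatter of the single library to be that of the replicated groups, and no value here has a check in a second smooth muscle culture. Nothing in the labels says that the MLC replicates came from separate cultures, and p-values then measure only spread between libraries. That spread is pooled over the MLC, MesoT day 18 and MesoT FCS pairs, so a gene's standard error also holds the scatter between MesoT replicates. The smooth muscle library held 27125377 counts and the MLC libraries 70679258 and 65709545. Mitochondrial transcripts took 3.36% of counts in smooth muscle and 6.84% and 7.76% in MLC. Genes named as antisense summed to 6943 CPM in smooth muscle and between 7003 and 9001 CPM in MesoT, but to 2848 and 2897 CPM in MLC, and 455 of 1016 such genes tested were higher and 54 lower in smooth muscle. No strand setting is given in the sources used here, so the counts of overlapping genes on opposite strands are uncertain, and the part of the counting in this difference was not tested. As a guard, genes were marked as counted alike where the day 18 MesoT libraries, present in 2 separately counted sets of files, agreed within 0.5 log2 in both replicates. This held for 12801 of 22110 genes assessed. The mark is drawn from MesoT alone, and it does not cover the counting of MLC.

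Of the 23049 genes tested, 7916 (34.3%) passed the test, 4916 (21.3%) of them higher and 3000 (13%) lower in smooth muscle, and the median log2 fold change was 0.079. Among the 12795 tested genes that were counted alike, 14% were higher and 18.1% lower, against 2177 higher and 517 lower of the 6905 genes assessed and not counted alike. When the genes counted alike were fitted on their own, 1959 were higher and 1688 lower, so which direction had more calls among them turned with the fit. Without MLC replicate 1 the calls fell to 1895 higher and 610 lower, and without MLC replicate 2 to 1907 and 647. Across genes, the smooth muscle library had Spearman correlations of 0.829 and 0.831 with the MLC libraries and between 0.872 and 0.905 with the MesoT libraries, and the MLC libraries had 0.993 with each other. These are descriptions over genes within libraries and carry no test. Each list's called share below is to be read beside the 34.3% over all genes tested, 21.3% higher and 13% lower.

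**Figure D1:**
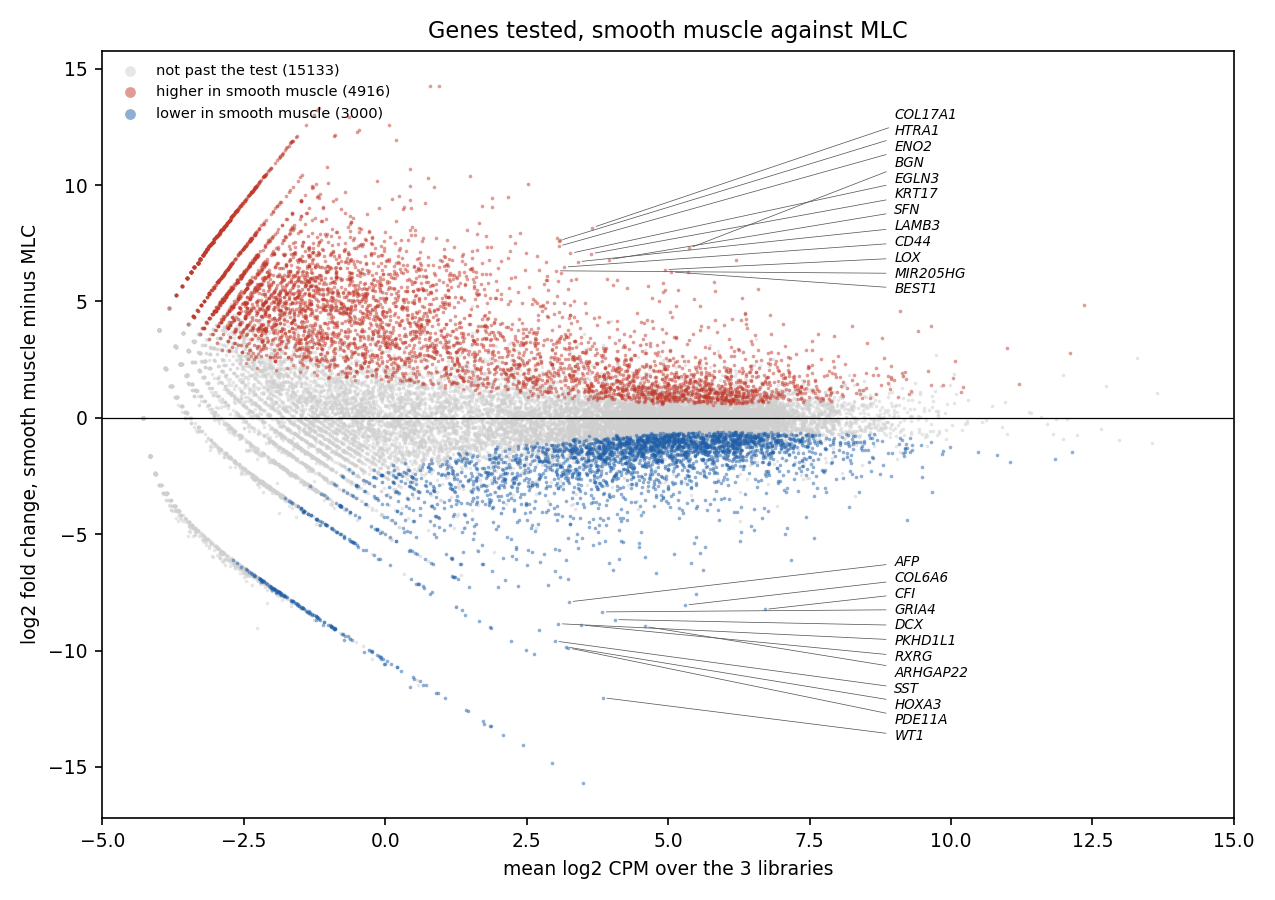
Each point is 1 of the genes tested, with its mean log2 CPM over the 3 libraries on the horizontal axis and its log2 fold change, smooth muscle minus MLC, on the vertical axis; red marks the 4916 higher and blue the 3000 lower calls. The named points are the 12 highest and 12 lowest calls of well-measured genes, from COL17A1 at 8.17 to WT1 at a fitted -12.02, and the straight streaks at the left are genes of very few counts.

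The highest calls among genes whose log2 CPM averaged at least 3 included epithelial and matrix genes. COL17A1, the transmembrane collagen of hemidesmosomes, had 544 CPM in the smooth muscle library and 1.64 and 2.14 CPM in the MLC libraries (log2 fold change 8.17 ± 0.64, adjusted p = 0.00084). KRT17, a keratin of basal and stressed epithelium, had 319.5 CPM against 2.54 and 2.28 CPM (7.05 ± 0.61, adjusted p = 0.00112), SFN, the epithelial 14-3-3 sigma, 355 CPM against 2.87 and 3.52 CPM (6.8 ± 0.81, adjusted p = 0.00288), and LAMB3, a chain of laminin-332, 232 CPM against 2.41 and 2.04 CPM (6.71 ± 0.49, adjusted p = 0.000688). MIR205HG, the host transcript of an epithelial microRNA, had 159 CPM against 1.11 and 2.86 CPM (6.32 ± 0.75, adjusted p = 0.00495). Of the matrix genes, BGN, the small proteoglycan biglycan, had 1199 CPM against 6.65 and 8.72 CPM (7.29 ± 0.53, adjusted p = 0.000643), and LOX, which cross-links collagen and elastin, had 580.3 CPM against 6.91 and 7.14 CPM (6.37 ± 1.08, adjusted p = 0.00866). HTRA1, a secreted serine protease, had 288 CPM against 0.952 and 1.99 CPM (7.61 ± 0.76, adjusted p = 0.00169). In each of these the smooth muscle library lay far above both MLC libraries. Only genes outside the range of the 2 MLC libraries could be among the 12, so the lack of overlap was set in advance. Of the 23049 genes tested, 21529 lay outside that range. ENO2, the enolase isoform of neurons (269 CPM against 0.819 and 2.44 CPM), EGLN3, an oxygen-sensing hydroxylase (251 CPM against 2.1 and 1.62 CPM), CD44, the hyaluronan receptor (195 CPM against 3.32 and 1.04 CPM), and BEST1, an anion channel (605 CPM against 8.95 and 6.71 CPM), completed the 12. Their log2 fold changes were 7.37, 7.07, 6.48 and 6.27, with adjusted p-values of 0.00161, 0.000827, 0.0121 and 0.00109. LOX and CD44 missed the threshold without MLC replicate 1 (adjusted p 0.0591 to 0.0728) and without MLC replicate 2 (adjusted p 0.0717 to 0.081). CD44 and BEST1 were not counted alike. With the 2 day 18 libraries scaled within each set of files, BEST1 stood at 805.6 and 436.8 CPM for day 18 MesoT in the one-library files and at 8.02 and 10.79 CPM for the same labelled samples in the human table, so its level differed between the 2 counts of the same samples. In the fit BEST1 had 679 and 364 CPM in MesoT day 18 and 651 and 1162 CPM in MesoT FCS, so only MLC was low. The part of the counting in the call of BEST1 was not tested.

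Among the lowest calls with the same minimum level, WT1, the zinc-finger factor that marks mesothelium, had 0.0407 CPM in the smooth muscle library and 217 and 148 CPM in the MLC libraries (count ratio 0.000221, 95% counting interval 5.60e-06 to 0.00123, adjusted p = 0.000875): 1 count was found in smooth muscle against 16446 and 10414 in MLC. CFI, a complement protease, had 2.32 CPM against 785 and 613 CPM (log2 fold change -8.23 ± 1.64, adjusted p = 0.0143), and COL6A6, a collagen VI chain, 0.936 CPM against 235 and 262 CPM (-8.05 ± 0.89, adjusted p = 0.00229). RXRG, a retinoid X receptor, had 0.163 CPM against 85.6 and 72.8 CPM (-8.9 ± 0.41, adjusted p = 0.000488), and GRIA4, a glutamate receptor subunit, 0.285 CPM against 103 and 84 CPM (-8.34 ± 0.51, adjusted p = 0.000451). Every one of these was far below both MLC libraries, and the choice of the 12 again required a level outside their range. HOXA3, a homeobox gene of the front of the body axis, had 0.0814 CPM against 92.2 and 62.8 CPM (count ratio 0.00104, 95% counting interval 0.000126 to 0.00377, adjusted p = 0.00141), and PKHD1L1, a large membrane protein found in mesothelium, 0.122 CPM against 58.7 and 56.5 CPM (count ratio 0.00212, 95% counting interval 0.000437 to 0.00619, adjusted p = 0.00101). SST, which encodes the hormone somatostatin, had 0.0814 CPM against 45.1 and 85.1 CPM (count ratio 0.00126, 95% counting interval 0.000153 to 0.00457, adjusted p = 0.0286). PDE11A, a cyclic nucleotide phosphodiesterase (0.0814 CPM against 90.3 and 69.6 CPM), ARHGAP22, a GTPase activator (0.366 CPM against 211 and 157 CPM), DCX, a microtubule protein of young neurons (0.285 CPM against 128 and 106 CPM), and AFP, the fetal liver protein (0.244 CPM against 84.6 and 34.2 CPM), were also among the 12 lowest. Their adjusted p-values were 0.000318, 0.0116, 0.0189 and 0.00712. CFI, SST and DCX missed the threshold without MLC replicate 1 (adjusted p 0.0577 to 0.0756) and without MLC replicate 2 (adjusted p 0.0543 to 0.0866). SST also missed it in limma voom (adjusted p = 0.217). PDE11A, ARHGAP22, DCX and AFP were not counted alike.

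The labels were checked against 7 markers of smooth muscle and 7 of mesothelium. ACTA2, smooth muscle alpha-actin, had 269 CPM in the smooth muscle library and 10.3 and 12.5 CPM in the MLC libraries (log2 fold change 4.56 ± 1.31, adjusted p = 0.0421). TAGLN, the actin-binding protein transgelin, had 600.2 CPM against 37.3 and 25.1 CPM (4.27 ± 1.14, adjusted p = 0.0343), MYH11, the smooth muscle myosin heavy chain, 8.63 CPM against 0.0925 and 0.0997 CPM (6.44 ± 0.53, adjusted p = 0.000942), and MYOCD, myocardin itself, 13.6 CPM against 0.74 and 1.21 CPM (3.8 ± 0.78, adjusted p = 0.0157). All 4 were higher in smooth muscle than in both MLC libraries. CNN1, calponin, at 61.3 CPM against 54.7 and 39.5 CPM (0.38 ± 1.07, adjusted p = 0.801), and LMOD1, leiomodin, at 22.8 CPM against 11.8 and 10.2 CPM (1.05 ± 0.94, adjusted p = 0.413), did not pass the test. ITGA8, the integrin alpha-8 chain of contractile cells, went the other way, with 1.87 CPM against 27.2 and 63.3 CPM (-4.59 ± 0.64, adjusted p = 0.00467). DES, the muscle intermediate filament desmin, had 9.04 CPM against 89.2 and 92.1 CPM (-3.33 ± 1.37, adjusted p = 0.108). The library labelled smooth muscle thus carried 4 of 7 markers above MLC, 1 below, and 2 with no call. MYH11 had 9.12 and 4.72 CPM in MesoT day 18 and 5.54 and 5.42 CPM in MesoT FCS. ACTA2 had 515 and 80.7 CPM in MesoT day 18 and 1829.9 and 264 CPM in MesoT FCS, and the smooth muscle library was not the highest of the 7 libraries for any of the 7 smooth muscle markers. As these are bulk libraries, fewer cells of a type and less RNA per cell cannot be told apart here or below. ACTA2, TAGLN and MYOCD missed the threshold without MLC replicate 1 (adjusted p 0.101 to 0.186) and without MLC replicate 2 (adjusted p 0.0752 to 0.171). ACTA2 also missed it in the fit of genes counted alike (adjusted p = 0.0533). TAGLN, MYH11 and MYOCD were not counted alike.

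In the wider mesothelial list, of 33 tested, 6 were higher, 11 lower and 16 did not pass the test (51.5% called), with a median log2 fold change of -0.55; 1 higher and 4 lower without either MLC replicate in turn. Of the 7 markers, 4 were lower in smooth muscle. UPK3B, uroplakin 3B, had 1.14 CPM in the smooth muscle library and 55.9 and 38.1 CPM in the MLC libraries (log2 fold change -5.36 ± 1.07, adjusted p = 0.0144), LRRN4, a leucine-rich repeat membrane protein, 2.28 CPM against 143 and 121 CPM (-5.86 ± 0.97, adjusted p = 0.00813), and BNC1, the zinc-finger factor basonuclin 1, 8.14 CPM against 243 and 239 CPM (-4.89 ± 0.78, adjusted p = 0.00726). For these and for WT1, described above, smooth muscle lay below both MLC libraries. MSLN, mesothelin, was low throughout, at 1.79 CPM against 3.21 and 2.04 CPM (-0.55 ± 0.87, adjusted p = 0.647). KRT19, a simple keratin, was higher in smooth muscle at 1265 CPM against 389 and 412 CPM (1.66 ± 0.34, adjusted p = 0.0154), and so was CALB2, the calcium-binding protein calretinin, at 11.7 CPM against 2.91 and 2.73 CPM (2.05 ± 0.37, adjusted p = 0.0102). HAND1, a helix-loop-helix factor of lateral plate mesoderm, was lower, at 160.0 CPM against 319 and 358 CPM (-1.08 ± 0.21, adjusted p = 0.0125), and remained abundant in all 3 libraries. HAND1 had 20.2 and 19.9 CPM in MesoT day 18 and 0.0893 and 0.0558 CPM in MesoT FCS, below all 3 libraries compared. UPK3B, KRT19, CALB2 and HAND1 missed the threshold without MLC replicate 1 (adjusted p 0.0646 to 0.103) and without MLC replicate 2 (adjusted p 0.0605 to 0.0926).

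**Figure D2:**
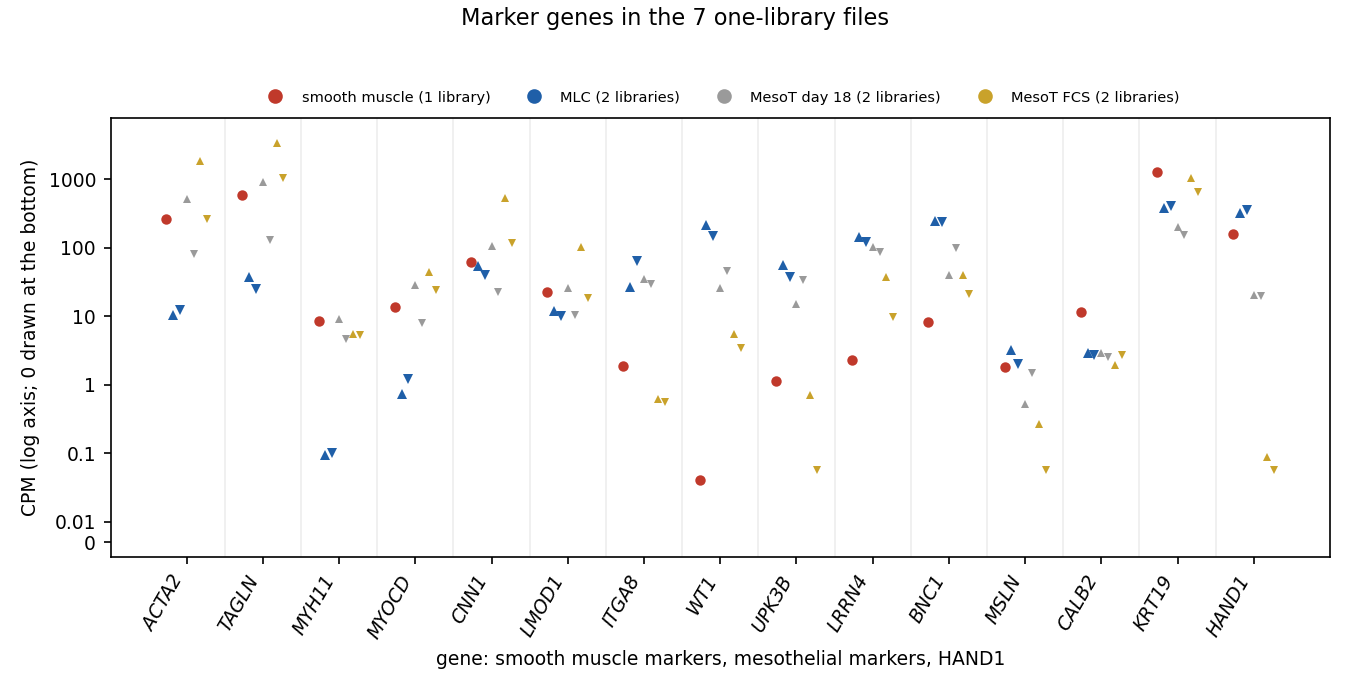
CPM on a log axis for 7 smooth muscle markers, 7 mesothelial markers and HAND1 in the 7 one-library files, 1 point per library (triangles up and down are replicates 1 and 2). The red point for smooth muscle is above both blue MLC points for ACTA2, TAGLN, MYH11, MYOCD, CNN1, LMOD1, KRT19 and CALB2. It is below both for ITGA8, WT1, UPK3B, LRRN4, BNC1, MSLN and HAND1. CNN1, LMOD1 and MSLN did not pass the test.

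The contractile apparatus list held 36 tested genes, of which 11 were higher, 3 lower and 22 did not pass the test (38.9% called), with a median log2 fold change of 1.46, beside 34.3% and 0.079 over all genes, so the called share was near that of all genes. The count was 2 higher and 2 lower without either MLC replicate in turn. The 31 members counted alike had 7 higher, 3 lower and a median of 1.05. ACTG2, the enteric gamma-actin of visceral muscle, was among the largest, with 64.3 CPM in the smooth muscle library and 0.397 and 0.385 CPM in the MLC libraries (log2 fold change 7.35 ± 1.15, adjusted p = 0.00683). PLN, phospholamban, which restrains the calcium pump of the sarcoplasmic reticulum, had 7.94 CPM against 0.0529 and 0 CPM (8.03 ± 1.42, adjusted p = 0.00976), and SGCA, a sarcoglycan of the muscle membrane, 1.06 CPM against 0.0132 and 0.0142 CPM (count ratio 77.2, 95% counting interval 19.3 to 671, adjusted p = 0.00611). KCNMB1, the beta subunit of the large-conductance potassium channel, SMTN, HSPB6, PPP1R14A and ACTN1 were the other members called higher beside ACTA2, TAGLN and MYH11. The 3 lower members were ITGA8, SMTNL2 and CACNA1C, the pore of the L-type calcium channel, at 4.72 CPM against 59.3 and 49.9 CPM (-3.53 ± 0.35, adjusted p = 0.00172). Together the 36 genes summed to 9360 CPM in the smooth muscle library and 4400 and 4190 CPM in the MLC libraries. MesoT FCS summed to 31200 and 16900 CPM over the same genes, above the smooth muscle library. ACTG2, SGCA, KCNMB1, SMTN, PPP1R14A, ACTN1 and SMTNL2 missed the threshold without MLC replicate 1 (adjusted p 0.0617 to 0.197) and without MLC replicate 2 (adjusted p 0.0596 to 0.16). HSPB6 missed it without MLC replicate 1 (adjusted p = 0.0882). PLN missed it without MLC replicate 2 (adjusted p = 0.060). PPP1R14A also missed it with the MLC counts thinned to the smooth muscle total (adjusted p = 0.0527) and in the fit of genes counted alike (adjusted p = 0.0521). KCNMB1 also missed it in limma voom (adjusted p = 0.0556). PLN was not counted alike. SGCA could not be assessed for alike counting.

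Because CArG boxes are the known entry point of SRF and myocardin, the promoters of the contractile genes were searched for them. RefSeq promoter sequences (GRCh38.p14, the 250 bases before each gene's start) matched 26 of the 36 genes by symbol. The box was searched as CCWWWWWWGG, with each W an A or a T, a pattern that reads the same on both strands. Boxes with another letter in the core were not sought, so a gene without a match may still hold one. A match was present in 3 of those 26 (11.5%), against 312 of 27305 promoters in all (1.1%) and 142 of 13739 promoters of tested genes (1.0%). ACTG2 was the only one with 2 boxes and the only one of the 3 that was called higher. MYLK, the myosin light chain kinase, and FLNA, filamin A, each held 1, and neither passed the test. The stretch from ACTG2 is shown because it holds a pair of boxes beside a called contractile gene, and those from MYLK and FLNA because they hold a box without a call; capitals mark the boxes.

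ACTG2, chr2:73892868-73892974, plus strand: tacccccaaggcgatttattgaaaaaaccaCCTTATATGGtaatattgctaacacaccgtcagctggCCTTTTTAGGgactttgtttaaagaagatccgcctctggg

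MYLK, chr3:123620613-123620662, minus strand: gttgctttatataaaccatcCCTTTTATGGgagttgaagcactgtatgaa

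FLNA, chrX:154374699-154374748, minus strand: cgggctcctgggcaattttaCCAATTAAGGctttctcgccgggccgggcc

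The 2 boxes of ACTG2 begin 110 and 73 bases before its start, 27 bases apart, and those of MYLK and FLNA each begin 94 bases before theirs. MYLK had a log2 fold change of 0.58 and FLNA of 0.52, beside 7.35 for ACTG2. TAGLN, MYH11, MYL9, DES, SMTNL2, SGCA, CRYAB, PGM5 and IRAG1 were among the genes with no entry. A match describes the letters in this window and is neither a site nor a cause.

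Regulators of smooth muscle were split. Of 20 tested, 6 were higher, 5 lower and 9 did not pass the test (55% called), with a median log2 fold change of 1.0; 2 higher and 1 lower without either MLC replicate in turn. BARX1, a homeobox factor of the stomach wall mesenchyme, had 2.28 CPM in the smooth muscle library and 0.0397 and 0.0142 CPM in the MLC libraries (log2 fold change 6.23 ± 1.12, adjusted p = 0.0102), SOX15, an SRY-box factor, 19 CPM against 0.317 and 0.285 CPM (5.96 ± 0.40, adjusted p = 0.000567), and FHL2, a LIM protein that binds SRF, 48.2 CPM against 6.07 and 4.43 CPM (3.2 ± 0.41, adjusted p = 0.00377). These and MYOCD lay above both MLC libraries. SOX15 had 1.35 and 1.74 CPM in MesoT day 18 and 1.21 and 1.12 CPM in MesoT FCS. Whether SOX15 acts in smooth muscle was not tested, nor was the part of the basal epithelial genes described later in its level. GATA6, a zinc-finger factor of visceral mesoderm, was lower at 17.4 CPM against 300.3 and 249 CPM (-3.98 ± 0.47, adjusted p = 0.00286), as was MEIS1, a homeobox cofactor, at 27.4 CPM against 169 and 171 CPM (-2.63 ± 0.56, adjusted p = 0.0171). TBX18, a T-box factor of epicardium and mural cells that was chosen after its values were seen, had 2.36 CPM against 219.5 and 219.7 CPM (-6.54 ± 1.41, adjusted p = 0.0181). SRF itself had a log2 fold change of -0.78 and did not pass the test. BARX1, MYOCD, MEIS1 and TBX18 missed the threshold without MLC replicate 1 (adjusted p 0.0682 to 0.101) and without MLC replicate 2 (adjusted p 0.0677 to 0.0853). SOX15 and MYOCD were not counted alike.

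Among factors of lateral and splanchnic mesoderm, nearly all calls were lower. Of 44 tested out of 48 listed, 1 was higher, 17 lower and 26 did not pass the test (40.9% called), with a median log2 fold change of -1.6; 0 higher and 6 lower without either MLC replicate in turn. BARX1 was the single higher member. Over all genes tested 34.3% were called, 21.3% higher and 13% lower. TBX5, a T-box factor of heart and forelimb, had 0 CPM in the smooth muscle library and 101 and 87.6 CPM in the MLC libraries (at least 775-fold lower, adjusted p = 0.000871). GATA5, a close relative of GATA6, had 3.62 CPM against 159 and 144 CPM (-5.38 ± 0.72, adjusted p = 0.00421), and MEIS2, a partner of HOX proteins on DNA, had 42.1 CPM against 235 and 227 CPM (-2.45 ± 0.25, adjusted p = 0.00179). TCF21, a factor of coelomic mesenchyme, had 3.34 CPM against 25.5 and 45.3 CPM (-3.41 ± 1.00, adjusted p = 0.0442). HAND2 did not pass the test, at 84.2 CPM against 52.1 and 66.4 CPM (0.51 ± 0.31, adjusted p = 0.238). The list also holds WT1, HAND1, GATA6, MEIS1 and TBX18, with the values already given, and the smooth muscle library lay below both MLC libraries for each gene called lower here. TCF21, HAND1, MEIS1 and TBX18 missed the threshold without MLC replicate 1 (adjusted p 0.0646 to 0.102) and without MLC replicate 2 (adjusted p 0.0677 to 0.153). TCF21 also missed it in the fit of genes counted alike (adjusted p = 0.0629) and in limma voom (adjusted p = 0.0546).

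HOX genes sit in 4 clusters, A to D, in which genes with low numbers act at the front of the body axis and genes with high numbers behind, and retinoic acid is known to switch on the low-numbered end. Of 14 tested HOX genes numbered 1 to 5, 0 were higher, 11 lower and 3 did not pass the test (78.6% called), with a median log2 fold change of -6.03; 0 higher and 7 lower without either MLC replicate in turn. Of 23 numbered 6 to 13, 5 were higher, 2 lower and 16 did not pass the test (30.4% called), with a median log2 fold change of 2.54; 1 higher and 0 lower without MLC replicate 1, and 2 and 0 without MLC replicate 2. The share called among these rear genes was below the 34.3% over all genes. HOXA2, HOXA4 and HOXA5 had 0.0407 CPM against 24.7 and 21.4 CPM (count ratio 0.00176, 95% counting interval 4.46e-05 to 0.00983, adjusted p = 0.00113), 0 CPM against 12 and 6.3 CPM (at least 75.6-fold lower, adjusted p = 0.00573) and 0.0814 CPM against 55.2 and 38.4 CPM (count ratio 0.00173, 95% counting interval 0.000209 to 0.00624, adjusted p = 0.00447). With HOXA3 above, HOXA2 to HOXA5 all stood at or under 0.0814 CPM in smooth muscle. HOXB1 had 0 CPM against 5.7 and 2.78 CPM (at least 35.1-fold lower, adjusted p = 0.0156) and HOXB5 3.83 CPM against 27.6 and 25.2 CPM (-2.78 ± 0.35, adjusted p = 0.00346). At the other end HOXA10 had 40.8 CPM against 1.52 and 4.17 CPM (3.84 ± 0.95, adjusted p = 0.0271), HOXA11 61.8 CPM against 1.1 and 1.82 CPM (5.4 ± 1.14, adjusted p = 0.0169), HOXB9 47.6 CPM against 6.98 and 8.65 CPM (2.61 ± 0.34, adjusted p = 0.00392) and HOXD11 1.91 CPM against 0.0264 and 0.057 CPM (5.43 ± 1.24, adjusted p = 0.0213). In between, HOXB6 and HOXB7 were lower at 12 CPM against 32.8 and 32.1 CPM (-1.43 ± 0.37, adjusted p = 0.0315) and 8.63 CPM against 30.5 and 25.7 CPM (-1.7 ± 0.39, adjusted p = 0.0213). In both the A and the B cluster, no gene before paralogue 9 was called higher and none from 9 on was called lower. Of the front genes, the 8 members counted alike had 0 higher, 7 lower and a median of -7.55. Of the rear genes, the 17 members counted alike had 2 higher, 2 lower and a median of 1.27. HOXB1, HOXA10, HOXA11, HOXD11, HOXB6 and HOXB7 missed the threshold without MLC replicate 1 (adjusted p 0.0673 to 0.133) and without MLC replicate 2 (adjusted p 0.0501 to 0.113). HOXB1, HOXB5, HOXA10 and HOXD11 were not counted alike.

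**Figure D3:**
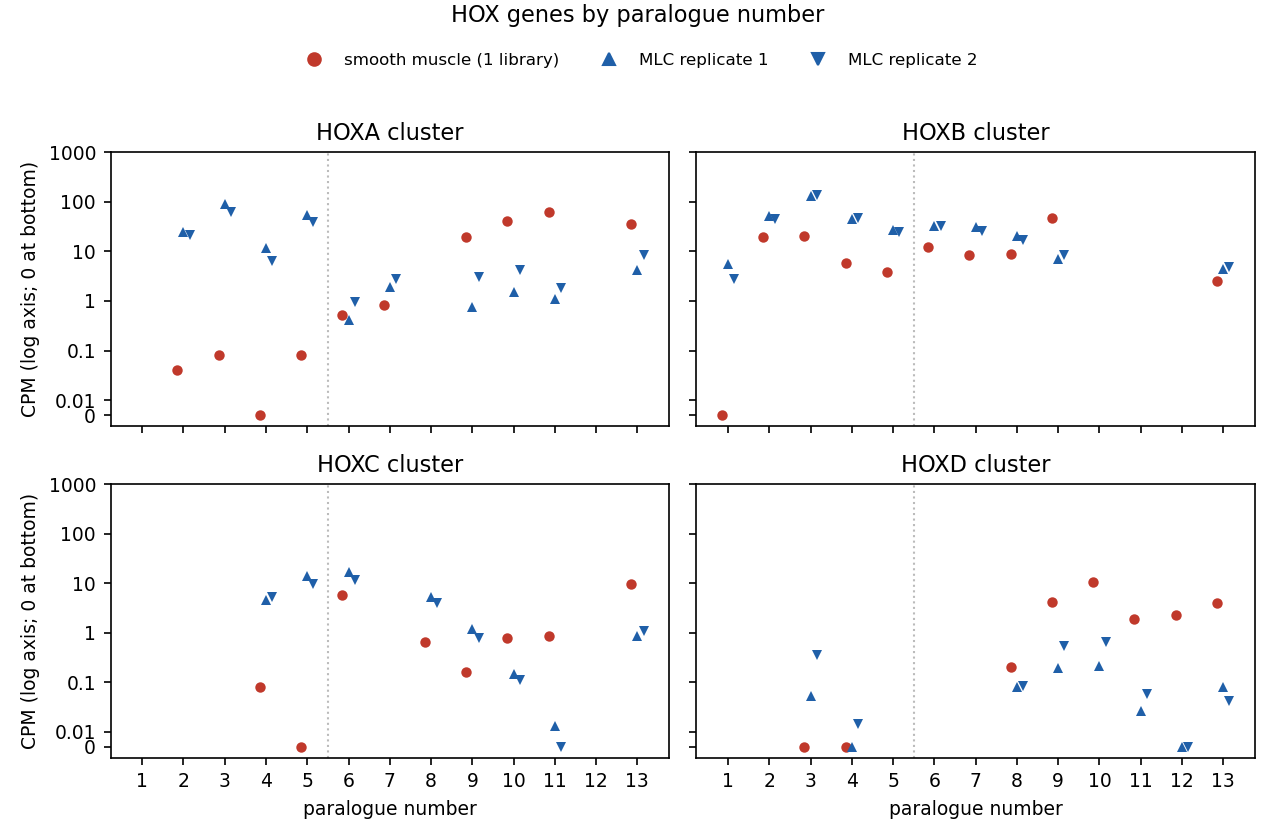
CPM on a log axis for the tested HOX genes, by cluster and paralogue number; the dotted line parts paralogues 1 to 5 from the rest, the red circle is the smooth muscle library and the blue triangles are the MLC replicates. In the A cluster the red circles lie below the blue triangles for HOXA2 to HOXA5 and above them from 9 on, and in the B cluster HOXB9 is the one gene with red above blue.

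Genes known to respond to TGF-beta, whose receptors were blocked in MLC, were called in 1 direction only. The inhibitor, retinoic acid and cell fate all differed between the 2 groups, so their parts cannot be told apart. Of 33 tested, 18 were higher, 0 lower and 15 did not pass the test (54.5% called), with a median log2 fold change of 2.33; 3 higher and 0 lower without either MLC replicate in turn. Among ligands, TGFB1 had 657 CPM against 27.6 and 30.4 CPM (log2 fold change 4.5 ± 0.58, adjusted p = 0.00368) and TGFB3 92.6 CPM against 33.3 and 30.2 CPM (1.54 ± 0.23, adjusted p = 0.00612). Among targets, LTBP2, an extracellular matrix protein, had 338 CPM against 0.476 and 0.456 CPM (9.49 ± 1.42, adjusted p = 0.00594). COL7A1, the anchoring fibril collagen, had 467 CPM against 12.4 and 14.4 CPM (5.12 ± 0.27, adjusted p = 0.00036). PMEPA1, a feedback inhibitor of SMAD signalling, had 106 CPM against 12.1 and 13.1 CPM (3.07 ± 0.47, adjusted p = 0.00653). LRRC15, a membrane protein that TGF-beta induces in fibroblasts, had 13 CPM against 0.0132 and 0 CPM (count ratio 1899.7, 95% counting interval 339 to 75267, adjusted p = 0.00192). The smooth muscle library was above both MLC libraries in all of these. COL7A1 is also in the basal epidermal list described later, which summed to 8100 CPM in the smooth muscle library and 691 and 753 CPM in the MLC libraries, and the part of such cells in these values was not tested. COL1A1, the main fibrillar collagen, had 32892 CPM against 5036 and 6112 CPM (2.56 ± 0.81, adjusted p = 0.0545), just outside the threshold. The feedback gene SMAD7 (log2 fold change 0.46) and the receptor genes TGFBR1 (0.66) and TGFBR2 (0.022) did not pass the test. The 33 genes summed to 67700 CPM in the smooth muscle library and 17200 and 19900 CPM in the MLC libraries. MesoT, with no inhibitor in its labels, had 36900 and 16900 CPM at day 18 and 52100 and 76300 CPM as MesoT FCS. TGFB3, LTBP2 and PMEPA1 missed the threshold without MLC replicate 1 (adjusted p 0.0502 to 0.0577) and without MLC replicate 2 (adjusted p 0.0535 to 0.059). TGFB1 was not counted alike. LRRC15 could not be assessed for alike counting.

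Genes of the pathway of retinoic acid, which was supplied to MLC, leaned the other way. Here too retinoic acid, the inhibitor and cell fate cannot be told apart. Of 28 tested, 1 was higher, 10 lower and 17 did not pass the test (39.3% called), with a median log2 fold change of -1.23; 0 higher and 4 lower without either MLC replicate in turn. LRAT, which stores retinol as an ester, had 1.26 CPM in the smooth muscle library and 158 and 100.3 CPM in the MLC libraries (log2 fold change -6.67 ± 0.78, adjusted p = 0.00276). CYP26B1, which breaks retinoic acid down and is itself induced by it, was chosen after its values were seen and had 14.7 CPM against 406 and 174 CPM (-4.3 ± 1.23, adjusted p = 0.0411). The lower calls also held RXRG and HOXB1, given above, and DHRS3, which reduces retinal. TGM2, tissue transglutaminase, was the single higher member, at 498 CPM against 40.6 and 28.9 CPM (3.84 ± 0.69, adjusted p = 0.0103). The receptor genes RARA, RARB and RARG had log2 fold changes of -0.96, -1.17 and -0.20, and none passed the test. The 28 genes summed to 1390 CPM in the smooth muscle library and 2820 and 2050 CPM in the MLC libraries. Their sums were 5110 and 3010 CPM in MesoT day 18 and 1870 and 2210 CPM in MesoT FCS. The 39.3% called was near the 34.3% over all genes tested. CYP26B1, HOXB1, DHRS3 and TGM2 missed the threshold without MLC replicate 1 (adjusted p 0.0663 to 0.145) and without MLC replicate 2 (adjusted p 0.0501 to 0.0939). CYP26B1 and DHRS3 also missed it in the fit of genes counted alike (adjusted p 0.0581 to 0.0594). HOXB1 was not counted alike.

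In the BMP and WNT pathways, which pattern mesoderm, genes were called in both directions. In the BMP list, of 30 tested, 5 were higher, 7 lower and 18 did not pass the test (40.0% called), with a median log2 fold change of -0.30; 2 higher and 3 lower without either MLC replicate in turn. BMP2, a ligand, had 63.7 CPM against 2.05 and 1.65 CPM (log2 fold change 5.1 ± 0.73, adjusted p = 0.00522), and GREM1, an antagonist that binds BMPs outside the cell, 143 CPM against 0.304 and 0.556 CPM (8.38 ± 0.41, adjusted p = 0.000355). The target gene ATOH8 had 0.814 CPM against 13.6 and 14.3 CPM (-4.1 ± 0.43, adjusted p = 0.00192), the signal transducer SMAD9 32.2 CPM against 103 and 109 CPM (-1.72 ± 0.24, adjusted p = 0.00502) and the receptor BMPR1A 43 CPM against 119 and 123 CPM (-1.49 ± 0.19, adjusted p = 0.00385). The ligand and the antagonist were above both MLC libraries and the other 3 genes below. In the WNT list, of 41 tested, 9 were higher, 11 lower and 21 did not pass the test (48.8% called), with a median log2 fold change of -0.76; 2 higher and 3 lower without MLC replicate 1, and 3 and 3 without MLC replicate 2. The antagonist DKK1 had 161 CPM against 1.06 and 2.04 CPM (6.7 ± 0.73, adjusted p = 0.00215) and the R-spondin receptor LGR6 19.4 CPM against 0.0529 and 0.0712 CPM (8.22 ± 1.05, adjusted p = 0.00358), while AXIN2, the standard target of beta-catenin, had 9.2 CPM against 54.5 and 59 CPM (-2.62 ± 0.25, adjusted p = 0.00152) and TCF7, its DNA-binding partner, 4.07 CPM against 24.8 and 21.2 CPM (-2.5 ± 0.33, adjusted p = 0.00394). The receptor FZD7 had 36.8 CPM against 118 and 117 CPM (-1.68 ± 0.20, adjusted p = 0.00311). BMP2 missed the threshold without MLC replicate 2 (adjusted p = 0.0515). LGR6 and AXIN2 were not counted alike.

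Of 19 NOTCH genes tested, 6 were higher, 0 lower and 13 did not pass the test (31.6% called), with a median log2 fold change of 1.54; 2 higher and 0 lower without MLC replicate 1, and 3 and 0 without MLC replicate 2. NOTCH3, the receptor of vascular smooth muscle, had 1079 CPM in the smooth muscle library and 71.2 and 106 CPM in the MLC libraries (log2 fold change 3.6 ± 0.31, adjusted p = 0.00109), and its ligand JAG1 393 CPM against 40.2 and 45.7 CPM (3.19 ± 0.26, adjusted p = 0.000886). Both were above both MLC libraries, and the target HES4 had 22.7 CPM against 3.65 and 5.46 CPM (2.32 ± 0.67, adjusted p = 0.0431), while HES1 had a log2 fold change of -0.034 and did not pass the test. HES5, another target, had 24 counts in smooth muscle and none in MLC (at least 47.5-fold higher, adjusted p = 0.0277). HES5 was tested only through the smooth muscle library, so it could only come out higher. With a filter of 1 CPM in 2 libraries 16 NOTCH genes were tested, 5 higher and 0 lower, with a median of 1.36. The 31.6% called here and the 23.1% in the hedgehog list were below the 34.3% over all genes tested. In the hedgehog list, of 13 tested, 0 were higher, 3 lower and 10 did not pass the test (23.1% called), with a median log2 fold change of -0.63; 0 higher and 1 lower without either MLC replicate in turn. The lower members were the co-receptor CDON at 31.2 CPM against 264 and 304 CPM (-3.19 ± 0.54, adjusted p = 0.00855), the signal transducer SMO at 66.2 CPM against 155 and 145 CPM (-1.18 ± 0.21, adjusted p = 0.00969) and the repressor-forming factor GLI3 at 68.1 CPM against 114 and 141 CPM (-0.90 ± 0.22, adjusted p = 0.027). PTCH1, the receptor that is itself a target, had a log2 fold change of -0.022. HES4, HES5, SMO and GLI3 missed the threshold without MLC replicate 1 (adjusted p 0.0714 to 0.192) and without MLC replicate 2 (adjusted p 0.061 to 0.14). HES4 also missed it without MesoT day 18 replicate 1 (adjusted p = 0.0516) and in the fit of genes counted alike (adjusted p = 0.0514). HES5 also missed it in DESeq2 (adjusted p = 0.22). HES5 could not be assessed for alike counting.

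Of the 40 lists, matrix genes had the largest summed level in smooth muscle. Of 67 tested, 29 were higher, 5 lower and 33 did not pass the test (50.7% called), with a median log2 fold change of 1.33; 5 higher and 2 lower without MLC replicate 1, and 8 and 2 without MLC replicate 2. They summed to 175000 CPM in the smooth muscle library and 33100 and 38800 CPM in the MLC libraries. FN1, fibronectin, had 49793 CPM in the smooth muscle library and 1527 and 1911 CPM in the MLC libraries (log2 fold change 4.86 ± 0.80, adjusted p = 0.00794), the largest part of that sum among the genes named here. COL8A1, a short-chain collagen of vessel walls, had 17.7 CPM against 0.119 and 0.142 CPM (7.05 ± 0.96, adjusted p = 0.00447), and ASPN, asporin, 3.38 CPM against 0.119 and 0.171 CPM (4.52 ± 0.66, adjusted p = 0.00566). BGN, LOX and LAMB3, given above, belong here too, and LAMB3 is also one of the basal epidermal genes, whose part in the matrix values was not tested. DCN, the small proteoglycan decorin, was lower at 155 CPM against 801 and 944 CPM (-2.49 ± 0.33, adjusted p = 0.00386). Fibrillar collagens called higher were COL1A2, COL5A1 and, of the network types, COL4A1 and COL4A2, while COL3A1, COL5A2 and COL11A1 did not pass the test. FN1, ASPN, COL1A2, COL5A1, COL4A1 and COL4A2 missed the threshold without MLC replicate 1 (adjusted p 0.0614 to 0.13) and without MLC replicate 2 (adjusted p 0.0515 to 0.0989). COL8A1 was not counted alike.

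**Figure D4:**
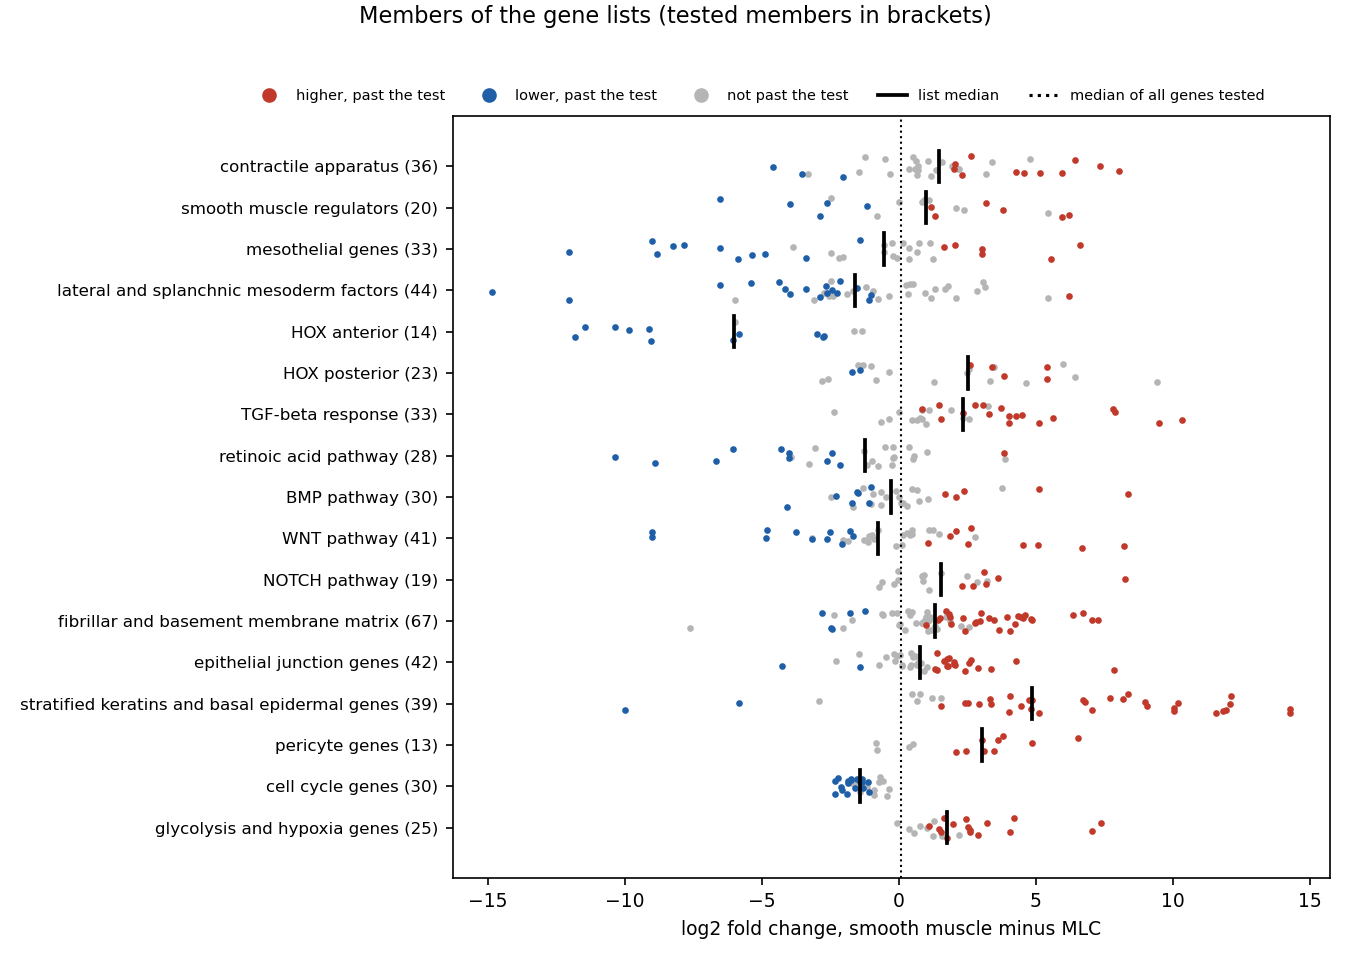
Log2 fold change, smooth muscle minus MLC, of every tested member of 17 gene lists, 1 point per gene; red and blue points passed the test, the black bar is the list's median and the dotted line is the median of all genes tested, 0.079. The medians run from -6.03 for HOX genes 1 to 5 to 4.87 for stratified keratins and basal epidermal genes, which is 3.38 with a filter of 1 CPM in 2 libraries and 3.14 over members counted alike.

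The smooth muscle library also carried genes of stratified and basal epithelium at high levels. Of 39 tested, 31 were higher, 2 lower and 6 did not pass the test (84.6% called), with a median log2 fold change of 4.87; 21 higher and 2 lower without MLC replicate 1, and 23 and 2 without MLC replicate 2. With a filter of 1 CPM in 2 libraries 25 members were tested, 17 higher and 2 lower, with a median of 3.38. Some members were thus tested only through the smooth muscle library, where they were high. KRT6A, KRT5, DSG1 and PKP1 were among them and could only come out higher. The 22 members counted alike had 15 higher, 2 lower and a median of 3.14. The whole list summed to 8100 CPM in the smooth muscle library and 691 and 753 CPM in the MLC libraries, and to between 588 and 768 CPM in the MesoT libraries. KRT6A, a keratin of wound and hair-follicle epithelium, had 741 CPM against 0.0529 and 0.0142 CPM (log2 fold change 14.28 ± 0.48, adjusted p = 0.000344). KRT5 and KRT14, the basal keratin pair, were chosen after their values were seen and had 870.3 CPM against 0.0529 and 0.0285 CPM (14.26 ± 1.02, adjusted p = 0.00129) and 259 CPM against 0.767 and 0.185 CPM (9.07 ± 0.74, adjusted p = 0.000933). TP63, the master factor of that layer, chosen in the same way, had 82.3 CPM against 7.2 and 9.0 CPM (3.34 ± 0.34, adjusted p = 0.00181). ITGB4, the hemidesmosome integrin, had 442 CPM against 13.8 and 17.4 CPM (4.83 ± 0.28, adjusted p = 0.000428), and the desmosome genes DSG1 and PKP1 had 63.9 CPM against 0.145 and 0.0997 CPM (8.99 ± 0.50, adjusted p = 0.000397) and 173 CPM against 0.0397 and 0.0427 CPM (11.93 ± 0.82, adjusted p = 0.000574). In each case the smooth muscle library stood alone above the 6 others. TFAP2B, a factor of surface ectoderm and neural crest, had 0.0407 CPM against 38.6 and 50.1 CPM (count ratio 0.000922, 95% counting interval 2.33e-05 to 0.00514, adjusted p = 0.000886), and it and KLK5 were the 2 lower members. KRT6A, KRT6B and KRT6C are near-identical copies, and their counts cannot be parted with certainty. The part of these epithelial genes in the other differences was not tested. KRT6A, KRT5, KRT14, DSG1 and PKP1 could not be assessed for alike counting.

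**Figure D5:**
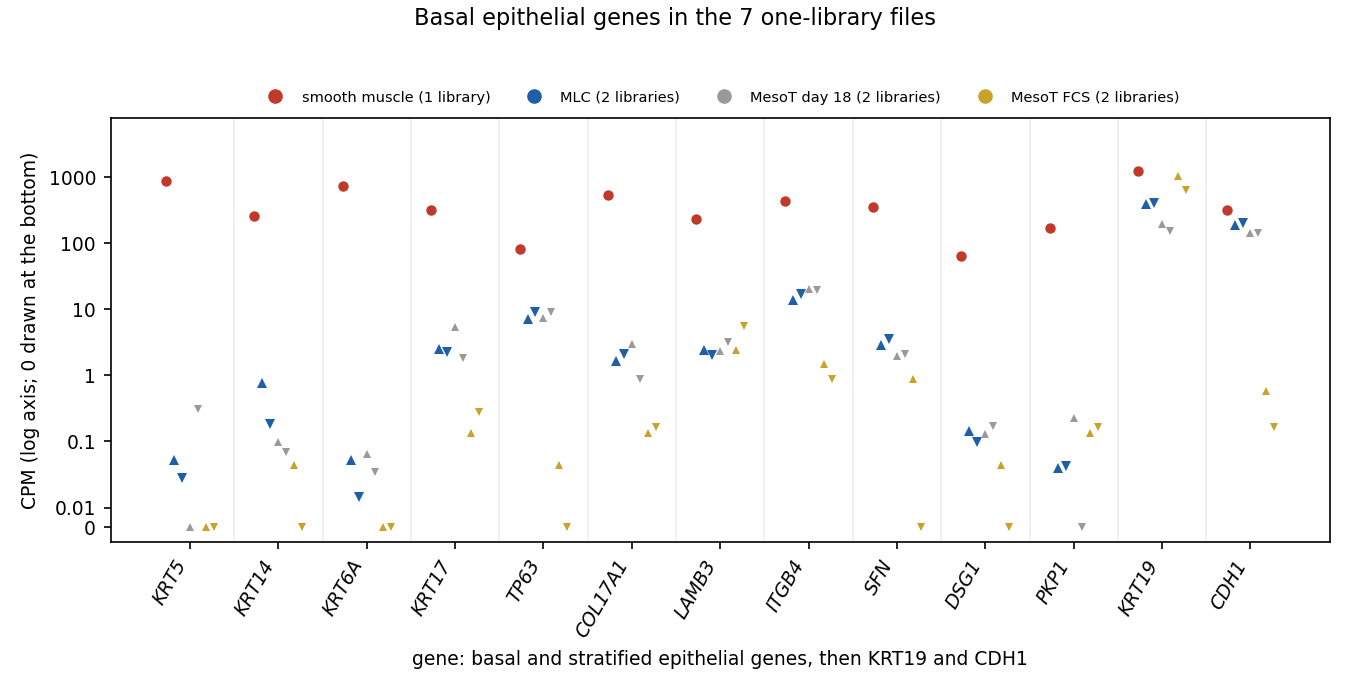
CPM on a log axis for 11 basal and stratified epithelial genes, KRT19 and CDH1 in the 7 one-library files, 1 point per library. For the 11 genes at the left the red smooth muscle point is above all 6 other libraries, while for CDH1 the test found no call.

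A search of the same promoters for the AP-2 motif GCCNNNGGC, which reads the same on both strands, found it in 1 of 23 basal epithelial genes with an entry, against 26.6% of promoters of tested genes, and in none of the 16 that were called higher. Of the epithelial junction genes, 42 were tested and 18 were higher, 2 lower and 22 did not pass the test (47.6% called), with a median log2 fold change of 0.76; 3 higher and 1 lower without MLC replicate 1, and 4 and 1 without MLC replicate 2. CLDN4, a tight junction claudin, had 236 CPM against 32.7 and 43.2 CPM (log2 fold change 2.64 ± 0.29, adjusted p = 0.00236), TJP3, a scaffold of the same junction, 34 CPM against 5.91 and 5.61 CPM (2.56 ± 0.28, adjusted p = 0.00219), and CDH13, a cadherin anchored by lipid, 53.9 CPM against 0.0529 and 0.413 CPM (7.85 ± 1.27, adjusted p = 0.0075). CDH1, E-cadherin, had 322 CPM against 191 and 205 CPM (0.70 ± 0.36, adjusted p = 0.175) and did not pass the test. CRB2, an apical polarity protein, was lower at 24.1 CPM against 520.3 and 409.6 CPM (-4.27 ± 0.74, adjusted p = 0.00901). Of 7 simple keratins, KRT19 and KRT80 were higher and KRT20, a keratin of gut and urothelium, was lower, at 0 CPM against 3.66 and 3.85 CPM (at least 30.7-fold lower, adjusted p = 0.0112); 0 higher and 0 lower without either MLC replicate in turn. Among the simple keratins 42.9% were called, beside 34.3% over all genes tested. VIM, vimentin, had 2981 CPM against 2395 and 2621 CPM (0.25 ± 0.37, adjusted p = 0.627). Of 19 amnion-associated genes, 2 were higher, 6 lower and 11 did not pass the test (42.1% called), with a median log2 fold change of 0.67; 1 higher and 2 lower without either MLC replicate in turn. KRT19, KRT80 and KRT20 missed the threshold without MLC replicate 1 (adjusted p 0.0797 to 0.114) and without MLC replicate 2 (adjusted p 0.0805 to 0.185). KRT20 could not be assessed for alike counting. It was tested only through the MLC libraries, so it could only come out lower.

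Lists of other cell types that such cultures could hold were read in the same way. The pericyte list had 69.2% called, beside 34.3% over all genes tested. Pericyte genes, of which 13 were tested, had 9 higher, 0 lower and a median of 3.04; 2 higher and 0 lower without either MLC replicate in turn. PDGFRB, the PDGF receptor of mural cells, had 574 CPM in the smooth muscle library and 52.4 and 81.5 CPM in the MLC libraries (log2 fold change 3.1 ± 0.45, adjusted p = 0.00545), FOXS1 3.22 CPM against 0.225 and 0.228 CPM (3.81 ± 0.66, adjusted p = 0.00901), and CSPG4, the NG2 proteoglycan, 150.1 CPM against 22 and 32.3 CPM (2.47 ± 0.61, adjusted p = 0.0277). Of 25 mesenchymal genes, 9 were higher, 3 lower and 13 did not pass the test (48% called), with a median log2 fold change of 0.78; 2 higher and 2 lower without either MLC replicate in turn. NT5E, the ecto-nucleotidase CD73, had 49.2 CPM against 0.198 and 0.0712 CPM (8.46 ± 0.60, adjusted p = 0.000624), while FOXC1, a forkhead factor of mesoderm, had 0.611 CPM against 40.0 and 22.1 CPM (-5.66 ± 0.63, adjusted p = 0.00235). Of 22 endothelial genes, 6 were higher, 0 lower and 16 did not pass the test (27.3% called), with a median log2 fold change of 2.07; 2 higher and 0 lower without either MLC replicate in turn. With a filter of 1 CPM in 2 libraries 17 members were tested, 5 higher and 0 lower, with a median of 1.22. ERG, an endothelial ETS factor, had 11.1 CPM against 0.0397 and 0.0142 CPM (8.5 ± 0.54, adjusted p = 0.000502) and FLT1, a VEGF receptor, 227 CPM against 3.37 and 5.43 CPM (5.69 ± 1.37, adjusted p = 0.0251), yet CDH5, VE-cadherin, stood at 0.529 CPM against 0.542 and 0.214 CPM (0.48 ± 0.82, adjusted p = 0.672). The summed endothelial level was 387 CPM in the smooth muscle library and 179 and 235 CPM in the MLC libraries. FOXS1, CSPG4 and FLT1 missed the threshold without MLC replicate 1 (adjusted p 0.0737 to 0.144) and without MLC replicate 2 (adjusted p 0.0724 to 0.121).

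Genes of heart muscle were mixed. The share called over all genes tested was 34.3%, and in the skeletal muscle list below it was 22.2%. Of 30 tested, 7 were higher, 5 lower and 18 did not pass the test (40.0% called), with a median log2 fold change of 0.21; 3 higher and 3 lower without MLC replicate 1, and 1 and 3 without MLC replicate 2. ACTC1, cardiac alpha-actin, had 718 CPM in the smooth muscle library and 20.4 and 12.6 CPM in the MLC libraries (log2 fold change 5.44 ± 0.58, adjusted p = 0.00201), whereas RYR2, the cardiac calcium release channel, had 0.773 CPM against 37 and 38.9 CPM (-5.61 ± 0.82, adjusted p = 0.00553) and HCN4, the pacemaker channel, 1.51 CPM against 101 and 89.2 CPM (-5.97 ± 0.78, adjusted p = 0.00379). The heavy chain genes MYH6, MYH7 and the light chain gene MYL2 had too few counts to be tested, with 0, 2 and 0 counts in smooth muscle beside 9 and 11 counts of MYH6 and 0 of the other two in MLC. Of 9 skeletal muscle genes, ACTA1 and CKM were higher, at 11.4 CPM against 0.436 and 0.228 CPM (5.08 ± 1.45, adjusted p = 0.041) and 0.733 CPM against 0 and 0.0142 CPM (count ratio 107, 95% counting interval 16.9 to 4452, adjusted p = 0.0325), and MYOD1, the defining factor, had 0 counts in all 3 libraries. ACTA1 and CKM missed the threshold without MLC replicate 1 (adjusted p 0.153 to 0.171) and without MLC replicate 2 (adjusted p 0.122 to 0.189). ACTA1 also missed it without MesoT FCS replicate 1 (adjusted p = 0.0594) and without MesoT FCS replicate 2 (adjusted p = 0.059). CKM also missed it with the MLC counts thinned to the smooth muscle total (adjusted p = 0.0514) and in DESeq2 (adjusted p = 0.0531). ACTA1 was not counted alike. CKM could not be assessed for alike counting. It was tested only through the smooth muscle library, so it could only come out higher. With a filter of 1 CPM in 2 libraries 5 skeletal muscle genes were tested, 1 higher and 0 lower.

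Of 17 hepatocyte genes, 2 were higher, 4 lower and 11 did not pass the test (35.3% called), with a median log2 fold change of -3.05; 0 higher and 2 lower without either MLC replicate in turn. The median was -1.9 without MLC replicate 1. Their sum was 20.0 CPM in the smooth muscle library and 164 and 72.7 CPM in the MLC libraries. The 35.3% called was near the 34.3% over all genes tested. APOB, an apolipoprotein, had 0 CPM against 15 and 8.23 CPM (at least 96.1-fold lower, adjusted p = 0.00557) and TTR, transthyretin, 0.0814 CPM against 3.83 and 2.79 CPM (count ratio 0.0244, 95% counting interval 0.00295 to 0.0887, adjusted p = 0.0163), while FOXA3 had 4.6 CPM against 0.0529 and 0.0855 CPM (6.0 ± 1.2, adjusted p = 0.0144). Of 15 gut epithelium genes, 5 were higher, 4 lower and 6 did not pass the test (60.0% called), with a median log2 fold change of -0.65; 2 higher and 1 lower without MLC replicate 1, and 1 and 2 without MLC replicate 2. With a filter of 1 CPM in 2 libraries 9 members were tested, 2 higher and 4 lower, with a median of -2.82. FABP1, a fatty acid binding protein, had 0.0814 CPM against 16.3 and 9.98 CPM (count ratio 0.00614, 95% counting interval 0.000743 to 0.0222, adjusted p = 0.00866) and LGALS4, a galectin, 0.122 CPM against 10.6 and 6.31 CPM (count ratio 0.0143, 95% counting interval 0.00295 to 0.0419, adjusted p = 0.00661), but TFF1, a trefoil peptide of stomach mucus, had 7.2 CPM against 0.0529 and 0.0285 CPM (7.35 ± 0.72, adjusted p = 0.00283). Their sum was 40.3 CPM in the smooth muscle library and 56.2 and 34.7 CPM in the MLC libraries. Of 14 neural genes, 5 were higher, 1 lower and 8 did not pass the test (42.9% called), with a median log2 fold change of 3.25; 2 higher and 0 lower without either MLC replicate in turn. Their sum was 305 CPM in the smooth muscle library and 155 and 140 CPM in the MLC libraries. With a filter of 1 CPM in 2 libraries 7 neural genes were tested, 3 higher and 1 lower, with a median of 3.69. STMN2, a neuronal stathmin, had 202 CPM against 0.634 and 0.983 CPM (7.96 ± 0.88, adjusted p = 0.00229), and NEUROD1 and SOX1 had 0 counts in all 3 libraries. Of 13 pluripotency genes, 2 were higher, 2 lower and 9 did not pass the test (30.8% called), with a median log2 fold change of -0.18; 1 higher and 1 lower without either MLC replicate in turn. POU5F1 had 5.58 CPM against 0.145 and 0.0142 CPM (6.05 ± 0.97, adjusted p = 0.00734) and has near-identical copies elsewhere in the genome. The blood list had 7 tested genes (28.6% called), with RUNX1 higher at 104 CPM against 13.2 and 16.3 CPM (2.82 ± 0.34, adjusted p = 0.00288). CD68, with 9 counts against 2 and 3, was also called. With a filter of 1 CPM in 2 libraries 2 blood genes were tested, 1 higher and 0 lower. The podocyte and kidney list had 13 tested genes (15.4% called), with 2 higher. Among them GDNF, a neurotrophic ligand, had 11.2 CPM against 0.634 and 0.242 CPM (4.65 ± 0.79, adjusted p = 0.00854). TTR, FOXA3 and CD68 missed the threshold without MLC replicate 1 (adjusted p 0.0941 to 0.204) and without MLC replicate 2 (adjusted p 0.0754 to 0.158). FABP1 missed it without MLC replicate 1 (adjusted p = 0.0614). GDNF missed it without MLC replicate 2 (adjusted p = 0.0565). CD68 also missed it with no filter on low counts (adjusted p = 0.0586), without MesoT FCS replicate 1 (adjusted p = 0.0602), without MesoT FCS replicate 2 (adjusted p = 0.0629), with the MLC counts thinned to the smooth muscle total (adjusted p = 0.0602) and in DESeq2 (adjusted p = 0.0599). APOB, POU5F1 and CD68 were not counted alike. TTR, FABP1, LGALS4 and TFF1 could not be assessed for alike counting. TFF1 was tested only through the smooth muscle library, so it could only come out higher. TTR, FABP1 and LGALS4 were tested only through the MLC libraries, so they could only come out lower.

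Genes of the cell cycle were called only lower in smooth muscle. Of 30 tested, 0 were higher, 18 lower and 12 did not pass the test (60.0% called), with a median log2 fold change of -1.41; 0 higher and 2 lower without either MLC replicate in turn. MKI67, the proliferation antigen Ki-67, had 63.9 CPM in the smooth muscle library and 314 and 321 CPM in the MLC libraries (log2 fold change -2.31 ± 0.42, adjusted p = 0.0103), and PCNA and TYMS, of DNA replication and thymidine synthesis, had 26 CPM against 118 and 105 CPM (-2.1 ± 0.24, adjusted p = 0.00251) and 19.4 CPM against 101 and 93.8 CPM (-2.33 ± 0.23, adjusted p = 0.0017). All 30 members had a negative log2 fold change. Of 12 genes for inhibitors of the cycle, CDKN2A, CDKN2B and CDKN2D were higher and none lower: CDKN2B, an inhibitor known to be induced by TGF-beta, had 355 CPM against 18.9 and 6.37 CPM (4.81 ± 1.09, adjusted p = 0.0209), CDKN2A 53.5 CPM against 19.3 and 14.1 CPM (1.68 ± 0.48, adjusted p = 0.0404) and CDKN2D 14.2 CPM against 2.83 and 2.93 CPM (2.3 ± 0.34, adjusted p = 0.00581). CDKN1A had a log2 fold change of 2.17 and did not pass the test. Of the inhibitor genes 25.0% were called, below the 34.3% over all genes tested. MKI67, CDKN2B, CDKN2A and CDKN2D missed the threshold without MLC replicate 1 (adjusted p 0.0549 to 0.117) and without MLC replicate 2 (adjusted p 0.0526 to 0.179).

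Glycolysis and hypoxia genes were called only higher in smooth muscle. Of 25 tested, 16 were higher, 0 lower and 9 did not pass the test (64% called), with a median log2 fold change of 1.74; 3 higher and 0 lower without MLC replicate 1, and 5 and 0 without MLC replicate 2. NDRG1, a stress gene, had 546 CPM in the smooth muscle library and 29.6 and 29.8 CPM in the MLC libraries (log2 fold change 4.2 ± 0.69, adjusted p = 0.00792), the glucose transporter SLC2A3 1649.6 CPM against 132 and 225 CPM (3.21 ± 0.53, adjusted p = 0.00816), and the aldolases ALDOA and ALDOC 1493 CPM against 236 and 259.9 CPM (2.59 ± 0.37, adjusted p = 0.00536) and 65.5 CPM against 8.78 and 14.1 CPM (2.52 ± 0.30, adjusted p = 0.00276). With ENO2 and EGLN3, described above, every named member lay above both MLC libraries. The oxygen-related gene VEGFA (log2 fold change 1.03) and PDK1 (-0.05) did not pass the test. NDRG1 and ALDOA missed the threshold without MLC replicate 1 (adjusted p 0.0557 to 0.0665) and without MLC replicate 2 (adjusted p 0.0501 to 0.0653). SLC2A3 missed it without MLC replicate 1 (adjusted p = 0.0625).

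Ion channels and receptors through which smooth muscle is excited were called in both directions. Of 32 channels tested, 6 were higher, 10 lower and 16 did not pass the test (50.0% called), with a median log2 fold change of -1.1; 1 higher and 7 lower without either MLC replicate in turn. RYR3, a calcium release channel, was higher at 24 CPM against 0.185 and 0.114 CPM (log2 fold change 7.29 ± 0.98, adjusted p = 0.00423), whereas KCNMA1, the pore of the potassium channel whose beta subunit KCNMB1 was higher, was lower at 13.5 CPM against 145 and 156 CPM (-3.48 ± 0.31, adjusted p = 0.00119). PIEZO2, a stretch-gated channel, had 6.11 CPM against 67.5 and 64.9 CPM (-3.44 ± 0.44, adjusted p = 0.00352). Of 28 receptors and effectors of contraction, 3 were higher, 4 lower and 21 did not pass the test (25% called), with a median log2 fold change of 0.69; 3 higher and 1 lower without MLC replicate 1, and 2 and 1 without MLC replicate 2. TBXA2R, the thromboxane receptor, and PTGFR, a prostaglandin receptor, had 5.37 CPM against 0.304 and 0.413 CPM (3.89 ± 0.44, adjusted p = 0.00248) and 1.91 CPM against 0.0132 and 0.0142 CPM (count ratio 139.5, 95% counting interval 36.5 to 1186, adjusted p = 0.00352). EDNRA, the endothelin receptor of vascular muscle, was lower at 14.9 CPM against 223 and 229 CPM (-3.93 ± 0.69, adjusted p = 0.0096), as was PTGER4 at 0.895 CPM against 44.8 and 26.1 CPM (-5.3 ± 1.24, adjusted p = 0.023). KIT, the receptor of the gut's pacemaker cells, had 12.2 CPM against 2.71 and 1.6 CPM (2.5 ± 0.46, adjusted p = 0.0114). PTGER4 missed the threshold without MLC replicate 1 (adjusted p = 0.0859) and without MLC replicate 2 (adjusted p = 0.0666). KIT missed it without MLC replicate 2 (adjusted p = 0.0738). TBXA2R and PTGFR were not counted alike.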

How the data were processed

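RNA-seq of polyadenylated RNA was analysed in 3 libraries, with 4 MesoT libraries added for the spread. The deposited values are raw read counts per gene, made by the authors on hg19; TopHat2 2.0.13, Bowtie2 2.2.9, Subread 1.4.2 and featureCounts are named per the submitters' processing notes. Reads were 50 or 75 bases long per the labels' protocols, without saying which sample had which. The human count table was counted separately by the authors and served only to mark genes counted alike (at least 10 mean counts in either set of day 18 libraries, each set scaled by TMM on its own, and a difference within 0.5 log2).

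Genes with too few counts (filterByExpr) were left out, libraries were scaled by TMM, and 1 model over the 7 libraries was fitted with edgeR 4.0.16 (quasi-likelihood test, R 4.3.3), which left 3 residual degrees of freedom. P-values were Benjamini-Hochberg adjusted over the 23049 genes, threshold 0.05. Every adjusted p printed for a gene is from this fit unless another setting is named. A group with 0 counts was given a floor of 3 counts over the group, and 1 to 3 counts a ratio with an exact 95% binomial interval; both cover counting error only. Gene IDs without a symbol held 0.834 to 1.1% of counts. The MLC replicates differed by more than sampling noise (chi-square per degree of freedom 37.6).

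Named were the 12 highest and 12 lowest calls whose log2 CPM averaged at least 3. Their smooth muscle level also had to lie outside the MLC range. Up to 6 genes of each of 40 lists and the cell type markers were named too, and genes outside this rule are said to be so. Genes given only as a log2 fold change, CDH5 and most genes named without values were chosen after their values were seen. The comparison, its members and the lists were chosen with earlier results of these data known. Alternatives included DESeq2 1.42.0, limma 3.58.1 (voom), other scalings and filters, and leaving out each MLC and MesoT library in turn. Some genes are not reported here.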

Additional observations from a re-analysis of the deposited data

How the results depend on the processing

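No paired analysis was possible because smooth muscle has 1 library and shares fewer than 2 replicate numbers with MLC. Of 7916 calls (4916 higher, 3000 lower), leaving out 1 library gave totals of 2505 to 10457, with 1895 to 5977 higher and 610 to 4841 lower. The lowest counts came without MLC replicate 1 (2505) or MLC replicate 2 (2554), and the highest without MesoT day 18 replicate 1 (10457) or replicate 2 (10179); with 1 MLC library the spread came from fewer samples. The 3 libraries alone gave 14132 calls, 7028 of them lower. A test against a log2 fold change of 1 gave 4151, with 3149 higher and 1002 lower. Genes counted alike, fitted alone, gave 3647, with 1959 higher and 1688 lower, against 1796 and 2311 for the same genes in the fit of all genes, so the direction with more calls turned; the cause was not tested. DESeq2 gave 9432 and limma voom 8793. Of 198 called genes named by the rule, 105 kept their call without MLC replicate 1, 103 without MLC replicate 2, and 157 in the test against a log2 fold change of 1; none reversed in any setting run. Calls were also gained by genes named without one: COL1A1 in 6 of 18 alternatives, DES in 5, CDH1 in 3 and HAND2 in 1. MSLN and VIM gained none. The single smooth muscle library limits every value, since no setting can leave it out.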

Other observations

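Of 43 growth factor ligands, receptors and binding proteins tested, 12 were higher, 4 lower and 27 did not pass the test (37.2% called), with a median log2 fold change of 0.77; 6 higher and 2 lower without MLC replicate 1, and 7 and 2 without MLC replicate 2. FGF1 had 33.3 CPM against 0.344 and 0.214 CPM (log2 fold change 6.88 ± 0.94, adjusted p = 0.00441), VEGFC, a lymphatic growth factor, 14.2 CPM against 0.0793 and 0.0712 CPM (7.5 ± 0.44, adjusted p = 0.000425), PDGFA 89.1 CPM against 14.5 and 11.3 CPM (2.79 ± 0.36, adjusted p = 0.00364) and NRG1, neuregulin, 4.31 CPM against 0.41 and 0.399 CPM (3.41 ± 0.44, adjusted p = 0.00364). KITLG, the ligand of KIT, was lower at 4.64 CPM against 59.5 and 70.0 CPM (-3.8 ± 0.47, adjusted p = 0.00334), while KIT itself was higher. IGFBP2, an insulin-like growth factor binding protein, had 501 CPM against 124 and 94.1 CPM (2.2 ± 0.25, adjusted p = 0.00244).

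Among imprinted genes, 17 were tested and 3 were higher, 1 lower and 13 did not pass the test (23.5% called), with a median log2 fold change of 0.14; 0 higher and 0 lower without either MLC replicate in turn. PHLDA2, a growth restrainer of the placenta, had 13.3 CPM against 0.317 and 0.114 CPM (log2 fold change 5.91 ± 1.00, adjusted p = 0.00851), and NNAT, neuronatin, 2.08 CPM against 0.0132 and 0 CPM (count ratio 303, 95% counting interval 52 to 12190.0, adjusted p = 0.0177). NDN, necdin, was lower at 26.8 CPM against 66.1 and 64.7 CPM (-1.29 ± 0.23, adjusted p = 0.00992). Of 24 interferon response genes, 4 were higher, 2 lower and 18 did not pass the test (25% called), with a median log2 fold change of -0.91; 1 higher and 0 lower without either MLC replicate in turn. HLA-B and HLA-C, of the class I family, had 101 CPM against 5.14 and 4.87 CPM (4.33 ± 0.48, adjusted p = 0.00226) and 252 CPM against 103 and 89.6 CPM (1.39 ± 0.31, adjusted p = 0.0195), and IFIT3 was lower at 1.38 CPM against 12.1 and 11.5 CPM (-3.09 ± 0.70, adjusted p = 0.0206). The HLA genes vary between people and resemble each other, which makes their counts uncertain. Cholesterol synthesis genes had 2 higher and 0 lower of 21 tested (CYP51A1 at 16.3 CPM against 4.69 and 5.64 CPM and SC5D at 217 CPM against 46.5 and 62.7 CPM), immediate early genes 2 and 0 of 24, targets of SRF and YAP 3 and 0 of 24, and antioxidant genes 1 and 0 of 18 (GPX3 at 71.1 CPM against 2.33 and 2.22 CPM). CYP51A1, SC5D and GPX3 had adjusted p-values of 0.022, 0.0251 and 0.00559. The 4 lists had median log2 fold changes of 0.483, 0.782, 0.636 and -0.0017. In the same order 9.5%, 8.3%, 12.5% and 5.6% of their genes were called, below the 34.3% over all genes tested. Without either MLC replicate in turn, 1 of the targets of SRF and YAP was called higher and no gene of the other 3 lists was called. PHLDA2, NNAT, NDN, HLA-C, IFIT3, CYP51A1, SC5D and GPX3 missed the threshold without MLC replicate 1 (adjusted p 0.0501 to 0.135) and without MLC replicate 2 (adjusted p 0.0547 to 0.118). NNAT also missed it in limma voom (adjusted p = 0.0787). HLA-B, IFIT3 and CYP51A1 were not counted alike.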
